A study of Mus musculus with 6 samples.

Results

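A set of 10 genes that mark the endothelium was measured in the soft palate of mouse embryos, namely Cdh5, Kdr, Flt1, Tek, Tie1, Pecam1, Plvap, Icam2, Mmrn2 and Rasip1. They were chosen by name, with earlier results of these data known, as genes shared by most endothelial cells. Most encode surface, junction or receptor proteins, while Mmrn2 encodes a matrix glycoprotein and Rasip1 a RAP1 effector. All 10 were found among the 21938 genes of the deposited table. The soft palate is the muscular posterior part of the palate, and it was taken at E14.0 in every library. Control embryos (3 libraries, replicates 1, 2 and 3) are described in the labels' protocols as carrying floxed alleles of b-catenin (Ctnnb1) without Cre, although the genotype field calls them wild type. Mutant embryos (3 libraries, replicates 5, 6 and 7) carry the same floxed alleles and in addition Osr2-Cre, in which palatal mesenchyme makes the recombinase. The comparison asks how the RNA of vessel cells stood in a palate whose mesenchyme was targeted for loss of β-catenin, the transducer of canonical Wnt signalling. Whether a library came from 1 embryo or from a pool is not stated, so a p-value here reflects only how these libraries vary, which may be technical in part.

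Endothelial cells line blood and lymphatic vessels. Their growth and survival depend on VEGF, which signals through the receptor tyrosine kinase KDR (VEGFR2) and is bound and held back by FLT1 (VEGFR1). Angiopoietins act through TEK (TIE2) together with the related orphan receptor TIE1 to settle and stabilise vessels, and VE-cadherin (Cdh5), PECAM1 and ICAM2 join the cells at their borders. In the growing palate, vessels run through the mesenchyme of the shelves beside the forming muscles.

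The deposited values were CPM, the reads of a gene as a share of the counted reads of its library times 1000000. Depth, read from the spacing of the lowest values, came to about 10014005 to 15080595 counted reads a library. The value of 3 reads, the level that a count of 0 still allows, was 0.199 to 0.300 CPM and covers counting error only. The targeted gene Ctnnb1 measured 671 to 784 CPM in controls and 582 to 633 CPM in mutants (log2 change -0.26 ± 0.10, SE, adjusted p = 0.183 in limma). Osr2, whose locus drives the Cre, measured 34.5 to 56.2 and 12.96 to 19.4 CPM (log2 change -1.47 ± 0.20, adjusted p = 0.0285). Gene-level values of Ctnnb1 include reads outside the floxed exons and reads of cells without Cre, so they are a partial check of the labels. Osr2-Cre is carried by mutants only, so the Cre allele and the loss of β-catenin cannot be told apart in any group difference. Xist stood above 100 CPM, as in female embryos, in control replicate 3 and mutant replicate 7 and in no other library.

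All 10 endothelial genes were detected in every library. Cdh5 had the highest CPM, a mean of 83.9 over the 6 libraries, and Icam2 the lowest, 5.15. At the estimated depths these levels rest on 741 to 1321 reads for Cdh5 and on 52 to 74 reads for Icam2, for which counting alone gives an error of 2.75 to 3.67% and of 11.6 to 13.9%. The coefficient of variation over the 6 libraries was 23.6% for Cdh5 and 11.3% for Icam2. It was 17.6 to 24.9% for the other 8 genes, whose counting errors were at most 10.3%.

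**Figure D1:**
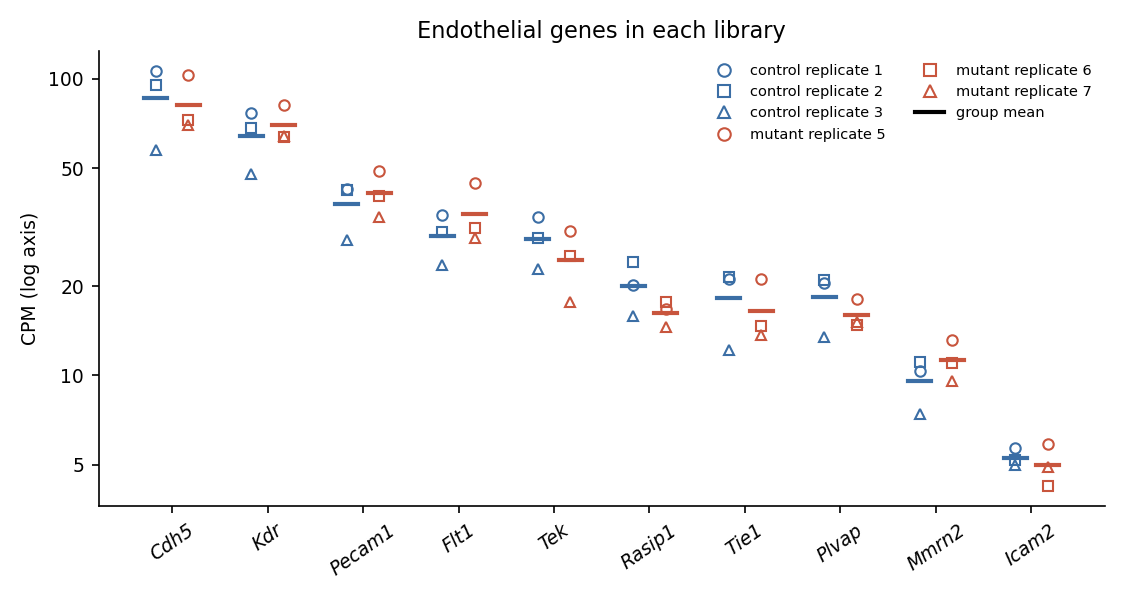
CPM (log axis) of each of the 10 endothelial genes in the 3 control and 3 mutant libraries, with bars at the group means. The groups overlap in each of the 10 genes, and control replicate 3 is the lowest control in each.

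Divided by the merged length of the exons, the levels ran from 19.97 CPM per kb for Cdh5 to 2.39 CPM per kb for Flt1. Cdh5 stood clear of the next gene, Plvap (8.65 CPM per kb), with no overlap of their ranges over the libraries. Below it neighbours overlapped. Per kb, Plvap lay above Kdr (7.42 CPM per kb) in 6 of 6 libraries and Kdr above Pecam1 (6.34 CPM per kb) in 6 of 6, so these orders held within libraries although the ranges crossed. Pecam1, Rasip1 (5.67 CPM per kb) and Tek (5.65 CPM per kb) exchanged places between libraries. Tie1 (3.53 CPM per kb) came next, and Icam2 (2.70 CPM per kb) and Mmrn2 (2.62 CPM per kb) could not be ordered, each being the higher in 3 libraries. The length of an annotated gene need not be the length of the transcripts present, which bears most on Flt1, whose 13504 bases of merged exons span a membrane-bound and a shorter soluble form.

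Kdr, the main signalling receptor for VEGF, lies on chromosome 5 from 75932827 to 75978458 (minus strand, GRCm38). It measured 76.8, 68.2 and 47.7 CPM in control replicates 1, 2 and 3 and 81.2, 63.8 and 64.2 CPM in mutant replicates 5, 6 and 7. The single low value belonged to a control, and the other 5 libraries were mixed in order. The means of 64.2 ± 14.96 and 69.7 ± 9.97 CPM (SD, n = 3 each) gave a fold of 1.10 with a 95% interval of 0.832 to 1.45 and an adjusted p of 0.691 in limma. This and every fold below comes from log2(CPM + 1), where the added 1 shrinks differences between small values, and adjusted p values are Benjamini-Hochberg values over all genes from limma. Flt1, the receptor that binds VEGF but signals weakly, lies on the same chromosome (147561604 to 147726011, minus strand). It measured 34.7, 30.3 and 23.6 CPM in controls and 44.6, 31.4 and 29.0 CPM in mutants. Its highest value was in mutant replicate 5 and its lowest in control replicate 3, with the groups overlapping between. The fold was 1.17 (95% interval 0.870 to 1.58, adjusted p = 0.519). Without control replicate 3 the log2 change of Kdr turned from 0.14 to -0.06 and that of Flt1 went from 0.23 to 0.08.

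Tek, the angiopoietin receptor TIE2, lies on chromosome 4 (94739289 to 94874976, plus strand). It measured 34.3, 28.9 and 22.9 CPM in controls and 30.6, 25.3 and 17.6 CPM in mutants. The lowest library was mutant replicate 7 and the highest control replicate 1, but mutants 5 and 6 lay inside the range of the controls. The mean went from 28.7 ± 5.71 to 24.5 ± 6.54 CPM, a fold of 0.850 with a 95% interval of 0.610 to 1.18 (adjusted p = 0.554). Tie1, its partner receptor on the same chromosome (118471191 to 118490061, minus strand), measured 21.1, 21.5 and 12.1 CPM in controls and 21.2, 14.7 and 13.7 CPM in mutants. In Tie1 the 3 highest libraries, 2 of them controls, were nearly level. Its fold was 0.921 (95% interval 0.631 to 1.34, adjusted p = 0.810). Leaving out mutant replicate 7 moved the log2 change of Tek from -0.23 to -0.02, and leaving out control replicate 1 or 2 took that of Tie1 from -0.12 to 0.0019 and 0.01.

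The DNA just before the transcription start is shown for the 3 receptors whose start in RefSeq lies within 3 bases of that in GENCODE, since the ratios between their RNA levels are given below. RefSeq (GRCm38.p6) gave windows for 5 of the 10 genes. Each run holds the 250 bases before the start, 5′ to 3′ on the strand of the gene, and capitals mark GGAA or its complement TTCC, the core bound by ETS factors, the family that drives many endothelial genes.
Kdr: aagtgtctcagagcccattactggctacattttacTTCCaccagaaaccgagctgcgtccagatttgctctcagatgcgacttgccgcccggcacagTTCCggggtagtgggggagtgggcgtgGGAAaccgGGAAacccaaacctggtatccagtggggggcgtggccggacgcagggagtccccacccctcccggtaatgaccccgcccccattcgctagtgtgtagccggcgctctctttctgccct
Flt1: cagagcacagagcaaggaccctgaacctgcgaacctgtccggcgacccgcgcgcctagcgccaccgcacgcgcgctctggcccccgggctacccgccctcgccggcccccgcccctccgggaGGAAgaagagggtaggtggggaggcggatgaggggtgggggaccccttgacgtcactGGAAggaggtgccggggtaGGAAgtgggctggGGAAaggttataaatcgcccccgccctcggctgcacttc
Tek: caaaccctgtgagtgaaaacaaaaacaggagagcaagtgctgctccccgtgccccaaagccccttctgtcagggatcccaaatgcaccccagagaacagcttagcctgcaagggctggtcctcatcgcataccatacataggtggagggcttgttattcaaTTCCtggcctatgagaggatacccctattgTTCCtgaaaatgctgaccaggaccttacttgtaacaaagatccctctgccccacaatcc
These are chr5:75978456-75978705 for Kdr, chr5:147726012-147726261 for Flt1 and chr4:94739039-94739288 for Tek. GGAA occurs 4 times in the Kdr window, 4 times in that of Flt1 and 2 times in that of Tek, counted on both strands. The core is short, and 93.4% of all 32851 windows of that length hold at least 1 match, with a median of 3, so these 3 windows are ordinary in this respect. CTTTGA, a core of the TCF/LEF factors through which β-catenin acts, is in none of the 3 windows on either strand and is in 13.8% of all windows. Only this exact run of bases and its complement were searched. Other forms of a TCF/LEF site were not looked for, so their absence from these windows is not shown.

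Cdh5 encodes VE-cadherin, the cadherin of endothelial adherens junctions and itself a binding partner of β-catenin (chromosome 8, 104101625 to 104144511, plus strand). It measured 106, 95.02 and 57.7 CPM in controls and 103, 72.6 and 69.9 CPM in mutants. A control held both the highest value and the lowest. The means were 86.2 ± 25.2 and 81.7 ± 18.3 CPM (fold 0.965, 95% interval 0.673 to 1.38, adjusted p = 0.920). The log2 change of Cdh5 was -0.05 and took values from -0.31 (without control replicate 3) to 0.12 (without control replicate 1), turning positive when control replicate 2, mutant replicate 6 or mutant replicate 7 was left out as well. Pecam1, an adhesion molecule of endothelial borders that platelets and leukocytes also carry (chromosome 11, 106654217 to 106750628, minus strand), measured 42.6, 42.2 and 28.7 CPM in controls and 48.9, 40.3 and 34.2 CPM in mutants. Its highest library was a mutant and its lowest a control, and the fold was 1.09 (95% interval 0.821 to 1.45, adjusted p = 0.724). Icam2, a ligand of leukocyte integrins (chromosome 11, 106377656 to 106388075, minus strand), measured 5.68, 5.19 and 4.98 CPM in controls and 5.87, 4.26 and 4.90 CPM in mutants. It was the flattest of the 10 genes, and the fold was 0.952 (95% interval 0.721 to 1.26, adjusted p = 0.847). The log2 change of Pecam1 turned from 0.13 to -0.06 without control replicate 3 and to just under 0 without mutant replicate 5, and that of Icam2 from -0.07 to 0.02 without mutant replicate 6.

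Plvap forms the diaphragms of fenestrated and other permeable endothelium (chromosome 8, 71497765 to 71511752, minus strand). It measured 20.6, 21.0 and 13.5 CPM in controls and 18.1, 14.8 and 15.2 CPM in mutants. All 3 mutants lay between the low control and the other 2 controls, and the fold was 0.894 (95% interval 0.671 to 1.19, adjusted p = 0.639). Mmrn2, an endothelial matrix glycoprotein that binds VEGF and the C-type lectin CLEC14A (chromosome 14, 34375465 to 34404287, plus strand), measured 10.3, 11.1 and 7.40 CPM in controls and 13.1, 11.02 and 9.61 CPM in mutants. The fold was 1.16 (95% interval 0.865 to 1.56, adjusted p = 0.540). Rasip1, a RAP1 effector needed for the opening of vessel lumens (chromosome 7, 45627488 to 45639093, plus strand), measured 20.1, 24.1 and 15.8 CPM in controls and 16.7, 17.6 and 14.6 CPM in mutants. Mutant replicates 5 and 6 lay between control replicates 3 and 1, and mutant replicate 7 lay below every control. Its fold of 0.833 (95% interval 0.643 to 1.08) had the smallest adjusted p of the 10 genes, 0.388. Of the 3202 exon bases of Rasip1, 654 are shared with Izumo1 on the same strand, and 498 and 222 with the antisense genes A030001D20Rik and Gm45437. These 3 genes measured 1.08, 3.82 and 0.729 CPM on average, and no source used here says if counting was stranded, so the value of Rasip1 is less certain than that of the other 9.

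**Figure D2:**
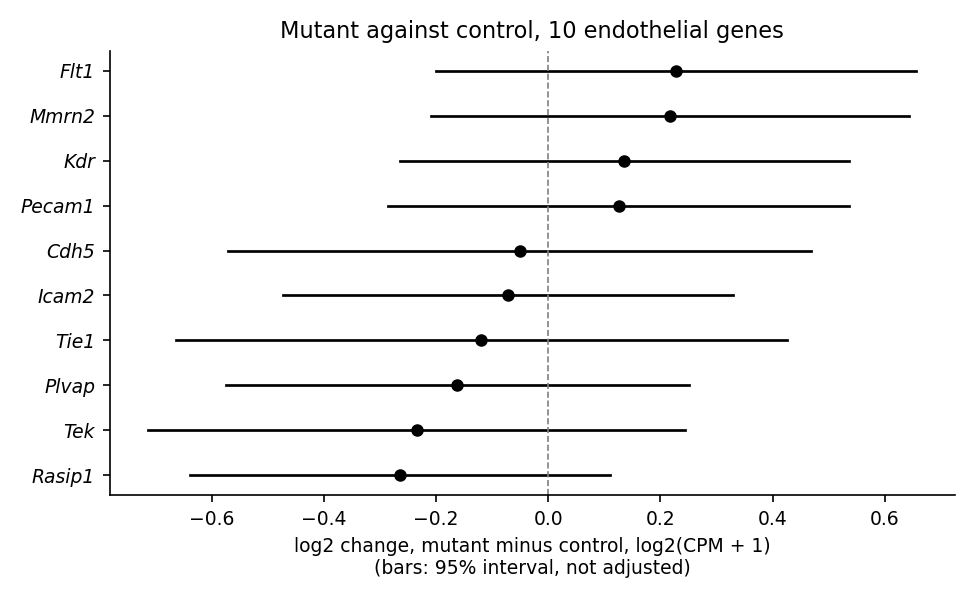
Log2 change of each endothelial gene, mutant minus control on the log2(CPM + 1) scale, with its 95% interval not adjusted for the number of genes. All 10 intervals include 0; 4 points lie above 0 and 6 below.

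None of the 10 endothelial genes passed the threshold of 0.05 on the adjusted p, where 0.479% of all genes did. Before adjustment 0 of 10 had a limma p below 0.05, against 21.4% of all genes, and the groups did not overlap in 0 of 10, against 27.8% of all genes. By the sign of the fold 4 were higher and 6 lower, with a median log2 change of -0.06 beside 0.04 over all genes. The summed level of the 10 genes was 318 ± 73.4 CPM in controls and 317 ± 58.2 CPM in mutants (SD, n = 3 each). The 95% intervals of the single folds reached down to 0.610 and up to 1.58, so changes within those bounds could not be told from no change with 3 libraries a group. Without control replicate 3, which was the lowest control in 10 of 10 genes, 8 of the 10 log2 changes were negative with a median of -0.21. In that fit 2 genes, Plvap (log2 change -0.36) and Rasip1 (-0.42), had an unadjusted p below 0.05, against 17.7% of all genes, and their adjusted p values were 0.255 and 0.229 in limma. No gene of the 10 passed the adjusted threshold with any library left out. In the other 5 such fits 0 of 10 had an unadjusted p below 0.05 in limma, beside 17.3 and 22.8% of all genes without control replicates 1 and 2 and 18.7, 18.3 and 13.3% without mutant replicates 5, 6 and 7.

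The spread that the 10 genes did show was largely shared. Averaged over the genes, the deviation from each gene's own mean, on the log2(CPM + 1) scale, was 0.21, 0.16 and -0.34 in control replicates 1, 2 and 3 and 0.24, -0.08 and -0.20 in mutant replicates 5, 6 and 7. In control replicate 1 all 10 genes stood above their own mean, and in control replicate 3 and mutant replicate 7 all 10 stood below it. Control replicate 3 held the lowest value of the 6 libraries in 7 genes, and mutant replicate 5 the highest in 5. Among mutants, replicate 5 was highest in 9 of 10 genes, Rasip1 being the exception. For comparison, control replicate 3 was the lowest control for 33.7% and mutant replicate 5 the highest mutant for 29.1% of all genes at or above the median level. Pecam1 followed the other 9 genes most closely (root mean square difference 0.09 on the log2 scale), and Rasip1 (0.21), Tek (0.19) and Icam2 (0.19) least. Icam2 had the largest counting error of the 10 genes, 11.6 to 13.9%, and the part of counting error in its difference was not tested.

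**Figure D3:**
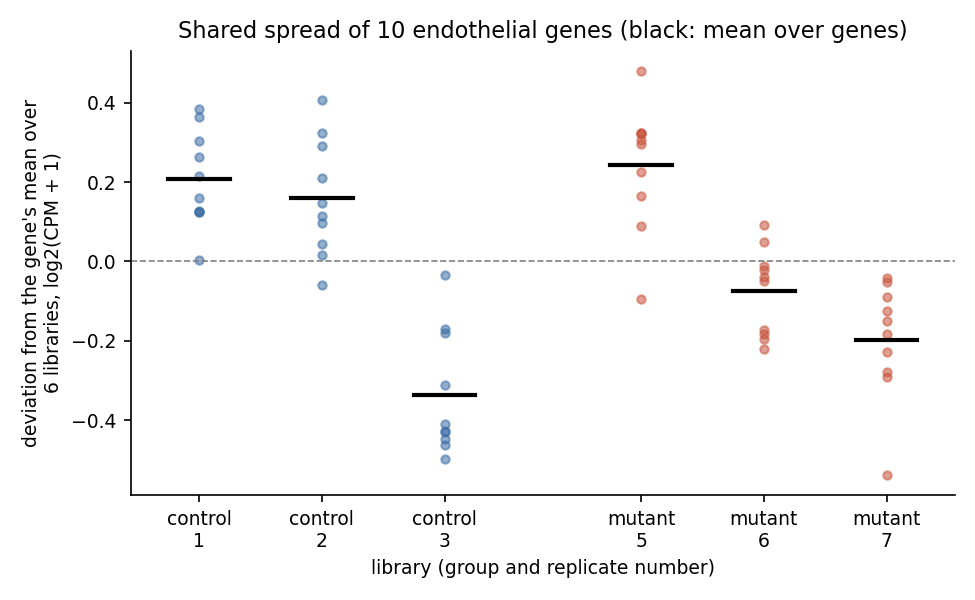
Deviation of each of the 10 endothelial genes from its own mean over 6 libraries, log2(CPM + 1), by library; points are genes and black bars their mean. The mean runs from 0.21 to -0.34 within controls and from 0.24 to -0.20 within mutants, a wider span within each group than between the group means.

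Other libraries' features moved beside this shared spread. The 2 libraries with Xist above 100 CPM, control replicate 3 and mutant replicate 7, were the lowest of their groups in summed endothelial level (234 and 273 CPM). The summed level of 12 palatal mesenchyme markers stood in the same order within each group, 9382, 8165 and 6274 CPM in control replicates 1, 2 and 3 and 8296, 7438 and 5637 CPM in mutant replicates 5, 6 and 7. Col1a1, Col1a2 and Col3a1 make up most of that sum. Gene by gene, control replicate 3 was the lowest control in 9 of the 12, mutant replicate 5 the highest mutant in 6 and mutant replicate 7 the lowest in 10. Among controls, Osr1 and Msx1 were highest in replicate 3. Globin RNA ran opposite to the summed endothelial level in controls, at 1566, 2761 and 4652 CPM in replicates 1, 2 and 3, and was 754, 1333 and 1281 CPM in mutant replicates 5, 6 and 7. The part of sex, of tissue makeup and of blood in the endothelial values was not tested. In bulk tissue, fewer endothelial cells and less RNA per endothelial cell cannot be told apart.

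Ratios between the genes within a library do not depend on the total to which the library was scaled. The ratio of Flt1 to Tek was 1.01, 1.05 and 1.03 in controls and 1.45, 1.24 and 1.64 in mutants. The controls were nearly equal and all 3 mutants lay above them, a difference of 0.48 on the log2 scale that stayed between 0.38 and 0.59 with any library left out. This pair was chosen after its values were seen. The ratio of Kdr to Tek was also higher in each mutant (2.08 to 2.36 in controls, 2.52 to 3.64 in mutants), whereas Kdr to Flt1, Tek to Tie1 and Cdh5 to Pecam1 overlapped. Over all 45 pairs of the 10 genes, the groups did not overlap in 15, or 33.3%. Among all pairs of genes at or above the mean level of Icam2, 29% did not overlap, near the share among endothelial pairs. The 2 shares are not like for like, since a ratio of 2 endothelial genes cancels the spread they share. Pairs that hold the same gene are also not independent. An exact permutation test of 3 against 3 cannot go below a two-sided p of 0.1, and the ratios were not tested. Taken against the mean of the 10 genes in the same library, Flt1, Mmrn2, Kdr and Pecam1 were higher in all 3 mutants than in any control, by 0.25, 0.24, 0.16 and 0.15 on the log2 scale, and the other 6 overlapped. Treated in the same way, 13% of all genes did not overlap and 9.24% were higher in all mutants. Those shares and the 4 of 10 are not like for like, since subtracting the mean of the 10 genes removes the spread they share and adds it to other genes.

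**Figure D4:**
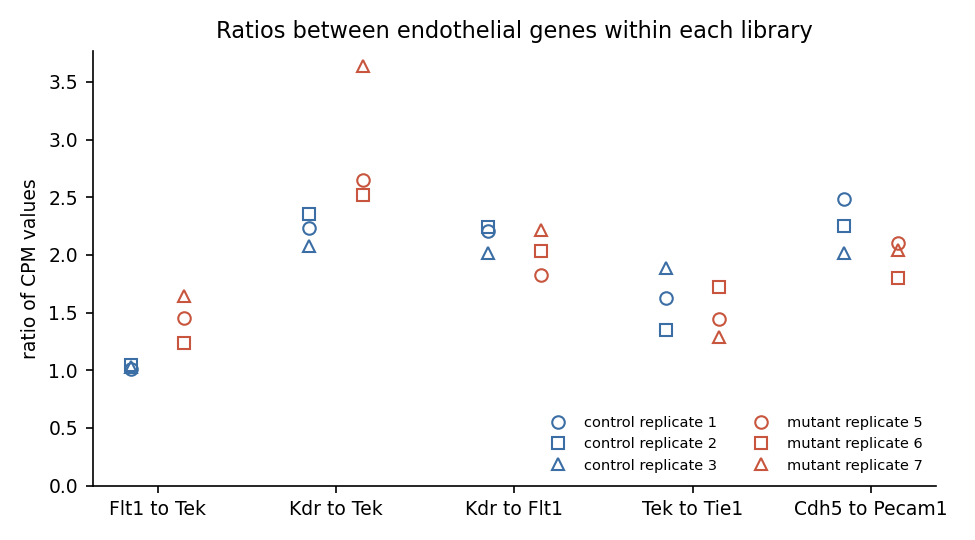
Ratio of CPM values between pairs of endothelial genes within each library. The ratio of Flt1 to Tek lies at 1.01 to 1.05 in the 3 controls and 1.24 to 1.64 in the 3 mutants, while Kdr to Flt1, Tek to Tie1 and Cdh5 to Pecam1 overlap between groups.

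Further endothelial genes were examined in lists that do not hold the 10. Of 35 other surface, junction and signalling genes, among them Cldn5, Eng, Emcn and Robo4, 0 passed over all genes and 0 had an unadjusted p below 0.05 in limma, with a median log2 change of -0.04. Tspan18, which had the highest CPM of them, measured 42.1 and 43.1 CPM in control and mutant, Rasgrp3 14.2 and 11.1 CPM (adjusted p = 0.272) and Cdh13 19.9 and 16.8 CPM (adjusted p = 0.348). Control replicate 3 was the lowest control in 26 of these 35 genes and mutant replicate 5 the highest mutant in 25, the same libraries as for the 10. Of 21 measured endothelial transcription factors 0 passed, and 2 were higher and 2 lower at an unadjusted p below 0.05. Mecom measured 68.4 ± 6.86 and 111 ± 27.5 CPM (adjusted p = 0.0813), Hlx 6.86 and 4.18 CPM (adjusted p = 0.169) and Tcf4, which many other cells also express, 414 and 379 CPM (adjusted p = 0.562).

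Most ligands of these receptors are made largely by other cells of the palate. Angpt2 is also counted below among genes of sprouting endothelial tip cells. Vegfa, the principal ligand of KDR, measured 82.6 ± 4.84 CPM in controls and 101 ± 1.71 CPM in mutants. All 3 mutants lay above all 3 controls, and the log2 change of 0.29 ± 0.08 (SE) did not pass (adjusted p = 0.113 in limma). Vegfb, a ligand of FLT1, measured 35.01 and 29.3 CPM with all mutants lower (adjusted p = 0.219), and the coreceptor Nrp2 166 ± 43.6 and 200.3 ± 76.5 CPM (adjusted p = 0.632). Of the 8 VEGF ligands and coreceptors 0 passed, and 1 was higher and 1 lower at an unadjusted p below 0.05, or 25% beside 21.4% of all genes. Angpt1, the ligand that activates TEK, measured 46.2 ± 4.03 and 32.3 ± 9.15 CPM, and Angpt2, which mostly opposes it, 8.32 ± 2.09 and 13.9 ± 3.76 CPM. Neither passed (log2 change -0.54 and 0.67, adjusted p = 0.162 and 0.164), and Svep1 measured 90.8 and 80.1 CPM (adjusted p = 0.714). Of these 4 measured genes of the angiopoietin list, which includes the phosphatase Ptprb, 0 passed, and 1 was higher and 1 lower at an unadjusted p below 0.05, or 50%. Among 10 genes that act with Rasip1 or in lumen formation, 0 passed, and 2 were higher and 2 lower at an unadjusted p below 0.05, or 40%. With 4 to 10 genes a list, these shares rest on 2 to 4 genes each. Afdn, a junction scaffold that epithelium also makes, measured 187 ± 1.71 and 245 ± 14.4 CPM (adjusted p = 0.0688) and Krit1 60.7 and 74.0 CPM (adjusted p = 0.173).

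Genes of single kinds of vessel gave no call either. In the arterial list 0 of 12 passed, with 2 higher and 1 lower at an unadjusted p below 0.05. Gja5, the arterial connexin 40, measured 30.1 ± 12.1 and 15.7 ± 3.29 CPM (adjusted p = 0.142, and 0.0472 without control replicate 2), Bmx 1.36 and 2.68 CPM (adjusted p = 0.152) and Efnb2 173 and 175 CPM (adjusted p = 0.952). In the venous list 0 of 5 measured genes passed and 0 had an unadjusted p below 0.05, with Ephb4 at 177 and 149 CPM (adjusted p = 0.238) and Aplnr at 31.6 and 26.3 CPM. In the lymphatic list 0 of 8 passed and 0 had an unadjusted p below 0.05 in limma, with Prox1 at 39.4 and 33.2 CPM, Lyve1 at 5.88 and 7.20 CPM. Of 10 genes of sprouting tip cells 0 passed, and 3 were higher and 1 lower at an unadjusted p below 0.05, or 40% beside 21.4% of all genes. Of those 3, Unc5b was also counted as higher in the arterial list and Angpt2 in the angiopoietin list, so these shares are not separate. Pdgfb, by which endothelium recruits pericytes, measured 8.35 ± 2.10 and 4.50 ± 0.47 CPM (adjusted p = 0.101), Kcne3 6.30 and 10.6 CPM (adjusted p = 0.139) and Nid2 99.5 and 76.8 CPM (adjusted p = 0.249). The list of genes through which Wnt signalling acts on barrier endothelium had 0 of 11 passing and 3 lower at an unadjusted p below 0.05. Apcdd1, which mesenchyme and epithelium also express, measured 89.5 ± 41.5 and 48.6 ± 9.83 CPM (adjusted p = 0.154), Slc7a5 30.7 and 23.3 CPM (adjusted p = 0.122) and Slc2a1, the glucose transporter GLUT1, 129 and 125 CPM (adjusted p = 0.957). The 7 lists named for endothelium (surface, transcription factor, arterial, venous, lymphatic, tip and barrier) hold 95 measured genes. Of these, 6 were higher and 7 lower at an unadjusted p below 0.05 in limma, which is 13.7%. Other cells also make some of them, such as Tcf4 and Apcdd1, so these shares do not describe endothelium alone. Single lists ran from 0% (surface, venous and lymphatic) over 19.0% (transcription factor), 25% (arterial) and 27.3% (barrier) to the 40% of the tip cell list.

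Lists of other cells that border or fill the vessels, or lie beside them, were read in the same fit. Of 13 measured pericyte and smooth muscle genes 4 were lower and 0 higher at an unadjusted p below 0.05 in limma. That is 30.8%, beside 21.4% of all genes. Tagln (29.2 to 17.6 CPM) and Myh11 (10.6 to 4.55 CPM) did not pass. The 2 that passed were Acta2 (157 ± 43.9 to 56.8 ± 5.42 CPM, adjusted p = 0.0296) and Des (144 ± 36.1 to 55.9 ± 11.9 CPM, adjusted p = 0.0362), and embryonic skeletal muscle makes both. At an unadjusted p below 0.05 in limma, 2931 of all 21938 genes were higher. Lower at that level were 1771 of all genes and all 12 skeletal muscle markers. Of these 12 markers, 7 passed (Myod1, Myog, Pax7, Acta1, Tnni1, Ryr1 and Cdh15, log2 changes -0.88 to -1.50, adjusted p = 0.0271 to 0.0352), beside 0.283% of all genes called lower. These calls, with all others of the table, were lost when 1 library (control 1 or 3, mutant 5 or 6) was left out, with sex as a covariate, or without a trend in the prior variance, and without mutant replicate 7 the whole table gave 2 calls. The call of Osr2 is among those lost. Their log2 changes moved little: with 1 library left out those of Osr2 and of these 9 genes were 0.868 to 1.18 times the values over all libraries, and with sex as a covariate their adjusted p values in limma were 0.0519 to 0.0622. All 11 measured erythroid markers were lower in every mutant than in any control, beside 10.8% of all genes, and 0 of the 11 passed (9 at an unadjusted p below 0.05 in limma, or 81.8%). Their summed level was 1636 to 4830 CPM in controls and 795 to 1391 CPM in mutants. Hba-a1, an adult alpha globin, measured 317 ± 145 and 77.1 ± 20.4 CPM (adjusted p = 0.0562), Hba-a2 1481 and 582 CPM (adjusted p = 0.128) and the embryonic globin Hbb-y 134 and 45.1 CPM (adjusted p = 0.0762). Blood cells travel inside the vessels, and the difference between the globin values and those of the vessel wall was not tested.

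**Figure D5:**
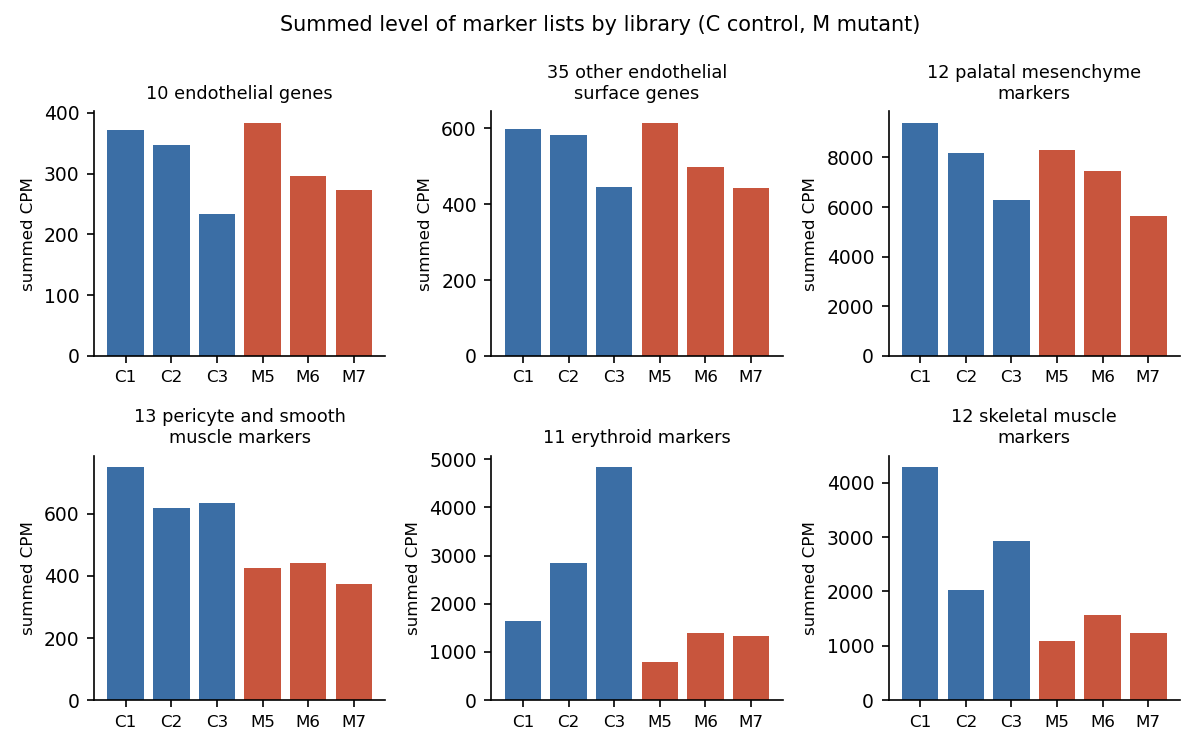
Summed CPM of 6 gene lists in each library (C control, M mutant, with the replicate number); bars start at 0. The 10 endothelial genes overlap between groups (234 to 372 CPM in controls, 273 to 383 CPM in mutants), whereas the erythroid sums run from 1636 to 4830 CPM in controls and from 795 to 1391 CPM in mutants.

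Platelets, their precursors and some leukocytes also express certain of the 10 genes. The 5 measured megakaryocyte and platelet markers summed to 17.1 to 29.3 CPM in controls and 17.1 to 21.8 CPM in mutants, and 0 passed. At an unadjusted p below 0.05 in limma stood 1 of them, or 20% beside 21.4% of all genes. Itgb3 measured 9.53 and 8.73 CPM, Itga2b 3.73 and 4.78 CPM, and Ppbp 3.56 ± 2.88 and 0.427 ± 0.356 CPM (adjusted p = 0.104). The 11 measured macrophage and leukocyte markers summed to 107 to 122 CPM in controls and 85.2 to 109 CPM in mutants with 0 passing (1 at an unadjusted p below 0.05, or 9.09%). In 4 of the 11 (36.4%) every mutant was lower than any control, beside 10.8% of all genes, and in 0 every mutant was higher. Among the 11 were Mrc1 at 51.6 and 45.9 CPM, C1qb at 6.99 and 3.73 CPM and Fcgr1 at 2.76 and 1.80 CPM. The part of platelets and leukocytes in the values of Pecam1, Icam2 and Tie1 was not tested. Of 12 epithelial markers 0 passed (2 higher at an unadjusted p below 0.05, or 16.7%), with Krt18 at 72.2 and 106 CPM, Grhl2 at 57.5 and 93.3 CPM and Krt14 at 355 and 373 CPM. Of the 12 palatal mesenchyme markers 0 passed (2 lower at an unadjusted p below 0.05, or 16.7%), with Col3a1 at 2338 and 1625 CPM, Twist1 at 103 and 77.5 CPM and Col1a1 at 2902 and 2851 CPM.

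Genes most like the 10 in their course over the 6 libraries were sought among 10960 genes at or above the median level, by the root mean square difference from the mean deviation of the 10. The closest were Gde1 (0.04 on the log2 scale), Emcn (0.04), Gpc6 (0.04), mt-Nd4 (0.05), Derl2 (0.05) and Zfhx4 (0.06). Emcn, endomucin, is an endothelial sialomucin and was in the list of surface genes, while the others are not endothelial markers. A gene equal in all libraries would lie at 0.22. Of the 56 ranked genes of those 7 endothelial lists 25 (44.6%) were closer than that, beside 19.1% of all ranked genes. Of the 100 closest genes 5 (5%) came from these lists, which hold 0.511% of all ranked genes.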

How the data were processed

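Soft palate RNA values of 3 control and 3 mutant libraries were read from 2 deposited tables with samples as rows, matched to the labels by name (0 columns of per-sample values left unused). The submitters' processing notes name STAR and the mm10 build. No source used here gives the counter, the annotation or the use of strand. The authors deposited CPM with a constant of 0.0001 added, as found from the values, which was subtracted. A second deposited table holds 2432 of the genes (11.1%) with identical values and none of the 10 endothelial genes (0); its filter is not stated. The step between low CPM values gave the depth. Only 63.8 to 69.6% of those values lay within 0.02 of a whole read, so reads were not recovered and no count model was used.

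Mutant was compared with control on log2(CPM + 1) by limma 3.58.1 (R 4.3.3) with an intensity trend, Benjamini-Hochberg adjustment over all 21938 genes, no filter and no covariate. The test was checked on simulated data in which genes varied independently, so that check does not cover spread shared between genes. The members and the 17 other lists were chosen with earlier results of these data known. From each list every gene past the adjusted threshold of 0.05 is named, otherwise the 2 with the smallest p and the one with the highest mean CPM. Of 202 listed genes 188 were measured. Replicate numbers are not shared between groups. Positions and merged exon lengths come from GENCODE vM21 (GRCm38), where 97.4% of genes matched by symbol. Alternatives changed the pseudocount, filter, scaling, prior variance, threshold, sex covariate and weights, and left out each library.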

Additional observations from a re-analysis of the deposited data

How the results depend on the processing

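The count of endothelial genes past the threshold was 0 in each alternative run, including a threshold of 0.1 on the adjusted p, and their median log2 change ran from -0.21 to 0.06 with 1 library left out. The count of all genes called, 105, was 999 at an adjusted p of 0.1, 0 without a trend in the prior variance, 0 with sex as a covariate, 576 with libraries scaled to the geometric mean of the 10 genes (chosen after seeing the data), and 0 to 452 with 1 library left out; the cause was not tested. The number of endothelial pairs whose ratio did not overlap, 15, was 16 to 23 with 1 library left out, where fewer samples make overlap less likely. Signs turned with 1 library left out for Cdh5 (-0.31 to 0.12), Kdr (-0.062 to 0.28), Pecam1 (-0.058 to 0.25), Tie1 (-0.37 to 0.013), Icam2 (-0.17 to 0.020), Col1a1 (-0.22 to 0.16), Efnb2 (-0.073 to 0.13), Itgb3 (-0.24 to 0.10), Krt14 (-0.25 to 0.35), Nrp2 (-0.054 to 0.44), Slc2a1 (-0.17 to 0.18), Svep1 (-0.39 to 0.021) and Tspan18 (-0.19 to 0.13), none of them called. Slc2a1 also turned, to 0.0020, with libraries scaled to the median of genes at or above the median level. No paired analysis was possible because the groups share no replicate number. At these depths Icam2 rests on the fewest reads of the 10 genes.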
